A study of Mus musculus with 2 samples.

Results

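The Sox transcription factor genes were examined in RNA-seq libraries of GFP-positive cells from cooled embryonic mouse cortex. They are the rows of the deposited count table named Sox1, Sox2, Sox3, Sox21, Sox4, Sox11, Sox12, Sox8, Sox9 and Sox6, 10 genes of 15643 listed and of 17 listed Sox genes. All 10 had a mean of at least 5 CPM (counts scaled to library size) over the libraries, the minimum for a gene called measured here. CD-1 embryos were electroporated in the cortex at embryonic day 13 with a plasmid, either a control or one for RBM3 knockdown, the mothers were cooled at embryonic day 14 and GFP-positive cells were sorted at embryonic day 15. Both groups were cooled, and each had 1 library. No replicate exists, so no test was possible and every comparison sets 1 library against 1 other. Intervals given with values are 95% intervals for counting error only. They do not cover the spread between embryos, litters or sorts, and reads are not independent molecules. How many embryos went into each sort is not stated.

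Sox proteins share a DNA-binding domain, the HMG box, which binds in the minor groove and bends the DNA. The family is divided by sequence into subgroups with different parts in the embryonic brain. The SoxB1 factors Sox1, Sox2 and Sox3 hold neural stem cells in the progenitor state. Sox21, of SoxB2, represses many genes that SoxB1 factors activate. The SoxC factors Sox4, Sox11 and Sox12 rise as progenitors leave the cell cycle and turn on genes of young neurons. Of the remaining members, the SoxE factors Sox8 and Sox9 act in stem cells and at the start of gliogenesis, and the SoxD factor Sox6 has no activation domain of its own and acts with other factors in progenitors and interneurons.

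The SoxC, SoxD and SoxE subgroups can be read from DNA that encodes the HMG box, but SoxB2 is not set apart from SoxB1 there. The stretch below covers 60 bases at the start of the box in each member, from the GENCODE M21 transcripts (GRCm38), and is shown because the family and its subgroups were defined on this domain. Capitals mark bases that differ from the commonest base at that position among the 10 genes (the first in the alphabet where bases tie).
Sox1, chr8:12396517-12396576, plus strand: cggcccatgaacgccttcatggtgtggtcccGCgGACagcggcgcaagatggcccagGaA
Sox2, chr3:34650548-34650607, plus strand: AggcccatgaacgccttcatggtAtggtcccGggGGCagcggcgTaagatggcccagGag
Sox3, chrX:60892936-60892995, minus strand: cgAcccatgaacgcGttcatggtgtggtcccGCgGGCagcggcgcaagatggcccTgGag
Sox21, chr14:118235549-118235608, minus strand: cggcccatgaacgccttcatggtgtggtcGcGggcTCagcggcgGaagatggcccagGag
Sox4, chr13:28952782-28952841, minus strand: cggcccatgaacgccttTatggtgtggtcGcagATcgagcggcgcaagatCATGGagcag
Sox11, chr12:27342199-27342258, minus strand: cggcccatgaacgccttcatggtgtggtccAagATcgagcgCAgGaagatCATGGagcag
Sox12, chr2:152397516-152397575, minus strand: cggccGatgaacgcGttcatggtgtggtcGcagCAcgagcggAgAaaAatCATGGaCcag
Sox8, chr17:25570163-25570222, minus strand: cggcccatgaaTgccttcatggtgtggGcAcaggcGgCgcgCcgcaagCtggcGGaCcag
Sox9, chr11:112782903-112782962, plus strand: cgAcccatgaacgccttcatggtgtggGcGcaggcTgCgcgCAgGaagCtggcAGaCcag
Sox6, chr7:115489703-115489762, minus strand: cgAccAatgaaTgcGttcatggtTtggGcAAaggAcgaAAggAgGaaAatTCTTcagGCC
All 10 genes had the same base at 26 of the 60 positions. The SoxC genes share a block near the end of the stretch (CATGG in capitals) that the others lack, and Sox11 was 90% identical to Sox4 here, Sox12 85% and Sox2 73.3%. Sox1 and Sox21 were each 90% identical to Sox2 and Sox3 was 88.3%, so Sox21 did not stand apart from the SoxB1 genes here. Sox6 stood apart, with 21 bases off the commonest and 61.7% identity to Sox4. The longest run shared by the coding sequences of any pair was 48 bases, between Sox4 and Sox11, shown because near-identical stretches could make reads ambiguous between these genes.
Sox4 and Sox11 shared run: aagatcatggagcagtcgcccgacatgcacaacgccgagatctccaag
No stretch of 50 bases was shared between transcripts of any 2 members, so exact reads of at least that length tell the members apart. What length the reads had is not known here.

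The control library held 17757555 reads over listed genes and the knockdown library 16823612. The targeted gene, Rbm3 (ENSMUSG00000031167.10), had 3242 control and 2397 knockdown reads, and its level in the library labelled knockdown was 84.1% of the control level (79.8% to 88.7%). The library is therefore called knockdown on the strength of its label. Of 12140 measured genes, 2.13% were at least 2-fold higher in it and 4.51% at least 2-fold lower, and their median log2 ratio of CPM (knockdown over control) was 0.03. Neural stem cells are the labelled cell type. Markers of neural progenitors summed to 2717 control and 1788 knockdown CPM, and markers of neurons to 6019 and 7830 CPM, so both libraries held neuronal RNA as well. Markers of meningeal fibroblasts summed to 709 and 53.3 CPM and those of choroid plexus to 657 and 21.4 CPM. In bulk RNA, fewer cells of a type and less RNA per cell cannot be told apart.

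Sox4 was the member with the most RNA in both libraries. Levels of different genes are compared in the deposited RPKM values (reads scaled to gene length and library size). Sox4 stood at 318 RPKM (314 to 321) for control and 598 RPKM (593 to 604) for knockdown. By reads Sox4 had rank 23 among all listed genes in control cells and rank 6 in knockdown cells. Sox11 came next at 89.4 control and 305 knockdown RPKM, then Sox12 at 76.4 and 74.7 RPKM and Sox2 at 57.9 and 58.8 RPKM. These 4 genes kept that order in both libraries, with intervals apart at every step. Below them the levels were at most 28.1 RPKM. In the control library the order was Sox1, Sox3, Sox9, Sox21, Sox8 and Sox6, from 18.7 down to 6.84 RPKM, and the neighbours Sox1 and Sox3, as well as Sox21 and Sox8, had overlapping intervals. In the knockdown library it was Sox1, Sox21, Sox3, Sox9, Sox6 and Sox8, from 28.1 down to 7.81 RPKM, where Sox21 and Sox3, and Sox6 and Sox8, overlapped.

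**Figure D1:**
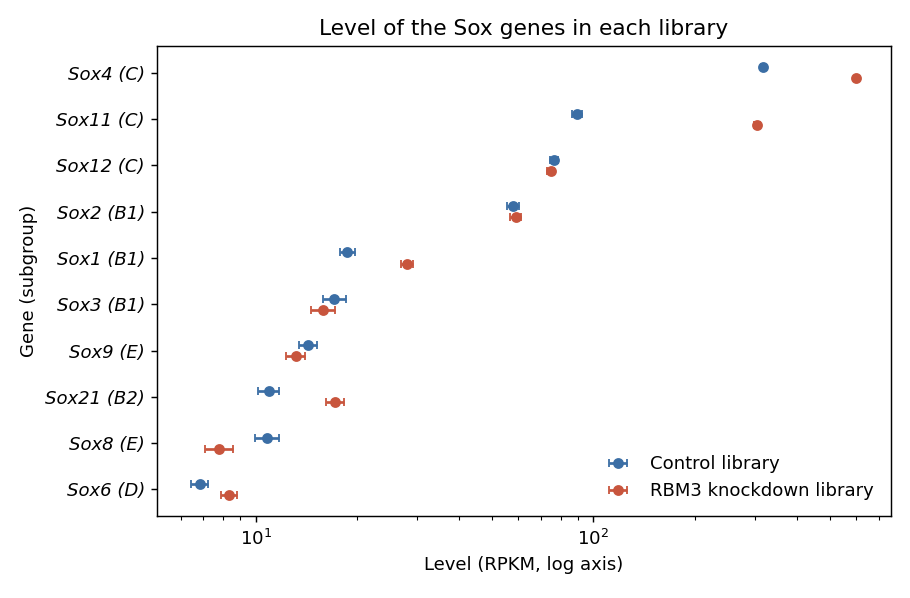
Level of each Sox gene in RPKM (log axis) in the control and knockdown libraries, 1 point per library, with bars for the exact Poisson 95% interval of the reads. Sox4 and Sox11 lie furthest right and farthest apart between the libraries, while Sox12, Sox2, Sox3 and Sox9 have nearly the same level in both.

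Sox11 and Sox4 were the members past 2-fold, both higher in the knockdown library, which is 20% of the members beside 2.13% of measured genes. None was 2-fold lower, beside 4.51% of measured genes, and 8 lay between, where 6.64% of measured genes were past 2-fold either way. The members were chosen with such results known, so this share is a description and does not set them apart. Their median log2 ratio was 0.26, beside 0.03 for all measured genes, and 0.10 without Sox4 and Sox11. Of the 10 ratios, 7 were above 0 and 3 below, beside 53.1% of measured genes above 0, and 4 fell between the quartiles of all measured genes (-0.30 to 0.32).

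Among the SoxC genes, Sox11 (ENSMUSG00000063632.5, chr12:27334264-27342574, minus strand) had 3201 control and 10351 knockdown reads (174 and 639 CPM). It was 3.68-fold higher there (3.54 to 3.83), a log2 ratio of 1.88, and 0.222% of measured genes had a higher ratio. The authors' deposited table lists Sox11 at log2 1.88, p = 0.00539 and FDR = 0.166. It is the 1 member that meets the rule of p below 0.05 and log2 past 1 in that table, where 1.82% of listed genes met it as higher and 6.05% as lower. The other members had p-values from 0.122 to 1.00 there. All p-values of that table equal, within 4.55e-15, those of edgeR's exact test at an assumed dispersion of 0.1, so they too rest on no measured replicate spread. Per the deposited reads and RPKM, the Sox11 gene model behind the counts was 2013 bases long, 24.2% of the 8311 exon bases in GENCODE M21. The RPKM of Sox11 thus describes that shorter model.

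Sox4 (ENSMUSG00000076431.4, chr13:28948919-28953713, minus strand) had 27075 control and 48318 knockdown reads (1468 and 2982 CPM). The ratio was 2.03-fold (2.0 to 2.06), a log2 ratio of 1.02, at the 2-fold line. With library totals in place of TMM scaling it was 0.91, and with upper-quartile scaling or a correction for transcript length 0.93. For Sox4 the authors' deposited table has p = 0.122 and FDR = 0.980. The gene shares exon bases with Gm26735 (ENSMUSG00000097461.1), a long noncoding RNA annotated on the opposite strand, and 54.1% of the 50-base stretches of the Sox4 transcript lie in both. Gm26735 had 13348 control and 18873 knockdown reads, at 283 and 423 RPKM. By RPKM, Sox4 was 1.12 times Gm26735 in the control library and 1.41 times in the knockdown library. Whether counting used strand is not stated, so reads of the pair cannot be told apart. Their summed reads were 40423 and 67191, 1.89-fold higher in the knockdown library (log2 0.92), which is under the 2-fold line. If reads of shared bases were assigned to both genes, the sum counts them more than once. Whether they were is not stated, so the sum cannot place Sox4 itself under that line.

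Sox12 (ENSMUSG00000051817.8), which activates less strongly than its SoxC relatives, had 6050 control and 5604 knockdown reads (328 and 346 CPM). Its ratio was 1.05-fold (1.02 to 1.09), unlike those of Sox4 and Sox11. A ratio between genes within a library does not depend on how libraries are scaled. By RPKM, Sox11 was 1.17 times Sox12 in control cells and 4.09 times in knockdown cells, a 3.49-fold difference (3.31 to 3.68). Sox4 was 4.16 and 8.01 times Sox12, a 1.93-fold difference (1.85 to 2.0). Between Sox11 and Sox4 the ratio also differed, by 1.81-fold (1.74 to 1.89).

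**Figure D2:**
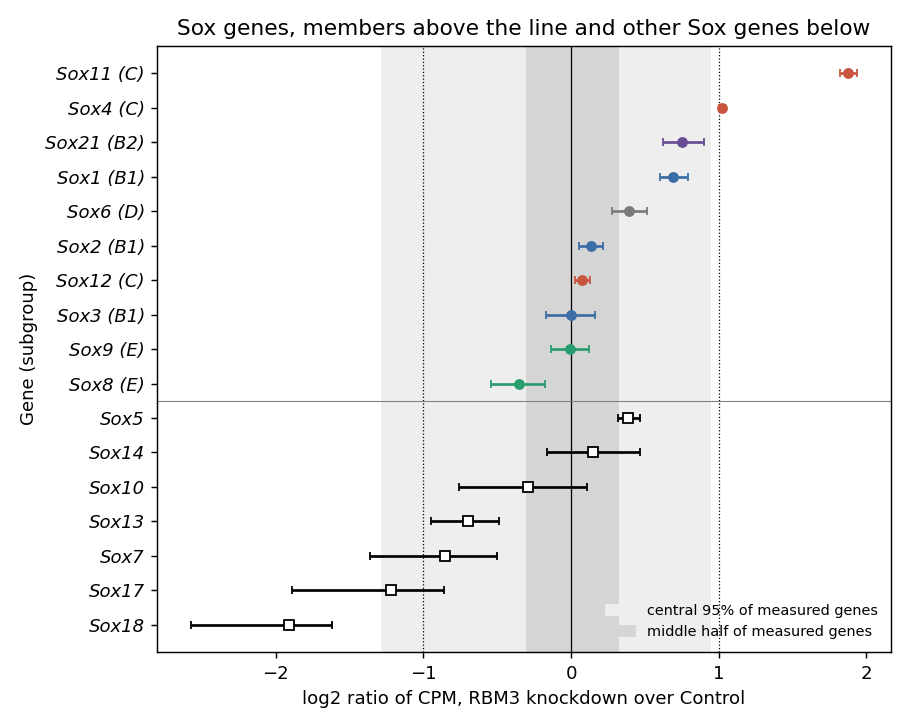
log2 ratio of CPM, knockdown over control, for the 10 members (above the line, coloured by subgroup) and the other listed Sox genes (squares below the line), with 95% counting intervals, grey bands for the interquartile and central 95% ranges of measured genes and dotted lines at 2-fold. Sox11 at 1.88 and Sox4 at 1.02 lie past the dotted line on the right, and Sox18 at -1.91 and Sox17 at -1.22 past the one on the left.

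The bases before the start sites of the SoxC genes are shown because Sox4 and Sox11 were higher together while Sox12 was not. Each line gives the 250 bases before the RefSeq start (GRCm38.p6), of a table that held 8 of the 10 members. Capitals mark matches to CCAAT, a common promoter element, and to the E-box CAGCTG, both searched on either strand.
Sox4, chr13:28953700-28953949, minus strand: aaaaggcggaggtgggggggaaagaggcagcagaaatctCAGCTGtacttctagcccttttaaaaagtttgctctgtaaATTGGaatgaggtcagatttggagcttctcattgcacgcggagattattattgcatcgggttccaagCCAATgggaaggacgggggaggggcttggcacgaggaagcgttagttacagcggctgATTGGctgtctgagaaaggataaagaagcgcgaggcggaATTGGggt
Sox11, chr12:27342719-27342968, minus strand: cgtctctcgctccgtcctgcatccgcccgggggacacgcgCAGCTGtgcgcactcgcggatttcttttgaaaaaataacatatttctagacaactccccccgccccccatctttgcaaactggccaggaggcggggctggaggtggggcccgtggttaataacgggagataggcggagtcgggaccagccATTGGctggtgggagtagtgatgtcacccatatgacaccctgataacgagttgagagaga
Sox12, chr2:152398047-152398296, minus strand: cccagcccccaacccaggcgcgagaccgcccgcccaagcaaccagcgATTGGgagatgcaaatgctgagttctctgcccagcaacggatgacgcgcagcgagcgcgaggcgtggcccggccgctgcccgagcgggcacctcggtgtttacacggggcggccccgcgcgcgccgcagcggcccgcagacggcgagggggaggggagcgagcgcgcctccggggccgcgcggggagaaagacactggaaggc
CAGCTG was found 211 bases before the RefSeq start of Sox4 and 210 bases before that of Sox11. It was not in the window of Sox12, and was in 13% of all 32851 promoter windows of this length. Among the other members with a window, it was matched only for Sox6 (1.31-fold higher), 156 bases before a RefSeq start. Sox1, 1.62-fold higher, had no match. In GENCODE M21, Sox4 starts at chr13:28953713, inside its window, and Sox11 at chr12:27342574, outside its window. Counted from those starts the 2 distances are not alike, so their near match rests on the RefSeq starts. CCAAT was found at 4 places for Sox4, 1 for Sox11 and 1 for Sox12, and in 33.8% of all windows. GGAATG, the TEAD site, was found once, in Sox4, where it overlaps a CCAAT match, and in 12.6% of all windows. GGGCGG (GC box) was found 2 times for Sox11 and 3 times for Sox12, of which 2 overlap, and in 32.7% of windows. None of the 3 windows held TATAAA, the core promoter element, which 12.4% of all windows held. The same was true of TGANTCA, the AP-1 site, which 6.75% held. Sites for Sox proteins themselves were also not matched, neither ACAATG, which 10.7% of windows held, nor the related ACAAAG, held by 16.5%. The windows of Sox4, Sox11 and Sox12 were 50.8%, 58.0% and 74.4% G or C, beside a median of 52.4%. A match is a run of letters, not a binding site.

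The SoxB1 genes differed from one another. Sox2 (ENSMUSG00000074637.4), the pluripotency and neural stem cell factor, had 2529 control and 2435 knockdown reads (137 and 150 CPM), 1.10-fold (1.04 to 1.16). Sox3 (ENSMUSG00000045179.8), the X-linked member, had 627 and 550 reads, 34.0 and 33.9 CPM, and its ratio of 0.998 (0.889 to 1.12) held 1 inside its interval. Sox1 (ENSMUSG00000096014.1), which marks neuroectoderm, had 1608 control and 2288 knockdown reads (87.2 and 141 CPM), 1.62-fold higher (1.52 to 1.73). By RPKM, Sox1 was 0.323 of Sox2 in control cells and 0.478 in knockdown cells, a 1.48-fold difference (1.36 to 1.61). Xist, which coats the silenced X chromosome, stood at 285 and 1521 CPM. Rbm3 is X-linked as well. The part of embryo sex in the values of Sox3 and Rbm3, and in the other differences between the libraries, was not tested.

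Sox21 (ENSMUSG00000061517.7), the SoxB2 repressor, had a ratio near that of Sox1. It had 738 control and 1099 knockdown reads (40.0 and 67.8 CPM), 1.69-fold higher (1.54 to 1.86). Its ratio to Sox1 differed between libraries by 1.05-fold with an interval that holds 1 (0.935 to 1.17), and its ratio to Sox2 by 1.55-fold (1.39 to 1.72). Sox1 and Sox21 lay between 1.5-fold and 2-fold, so 4 members were higher at a 1.5-fold line, which 9.13% of measured genes also passed. At a 3-fold line Sox11 alone remained, beside 0.486% of measured genes. Over all 45 pairs of members, 7 had an interval of this kind that holds 1. A lincRNA annotated on the other strand, Gm4675, shares some exon bases with Sox21 and had 113 and 174 reads. With them added the log2 ratio of Sox21 was 0.76, beside 0.75 without.

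The SoxE and SoxD members were all within 1.31-fold of the control. Sox9 (ENSMUSG00000000567.5), which is needed for the start of gliogenesis and also drives cartilage, had 1049 control and 916 knockdown reads (56.9 and 56.5 CPM), a ratio of 0.994 (0.908 to 1.09). Sox8 (ENSMUSG00000024176.4), its relative in glial precursors, had 599 reads (32.5 CPM) and 410 reads (25.3 CPM), 1.28-fold lower (1.13 to 1.46) and the lowest ratio among the members. The gene 2810468N07Rik overlaps Sox8 and had 50 control and 27 knockdown reads. With them added the log2 ratio of Sox8 was -0.38, beside -0.35 without. Sox6 (ENSMUSG00000051910.7) had 1076 reads (58.4 CPM) and 1243 reads (76.7 CPM), 1.31-fold higher (1.21 to 1.43). The Sox6 model behind the counts was 8852 bases long, 59.7% of its exon bases in GENCODE M21.

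Summed over members, the SoxC genes held 483 control and 978 knockdown RPKM, 78.0% and 86.8% of the RPKM of all 10 genes. SoxB1 genes held 93.7 and 103 RPKM, and SoxE genes 25.1 and 21.0 RPKM. The SoxC sum was thus 5.16 times the SoxB1 sum in control cells and 9.52 times in knockdown cells, a 1.84-fold difference. With summed reads in place of RPKM the ratios were 7.63 and 12.2, a 1.60-fold difference. SoxE to SoxB1 went the other way, from 0.268 to 0.204.

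**Figure D3:**
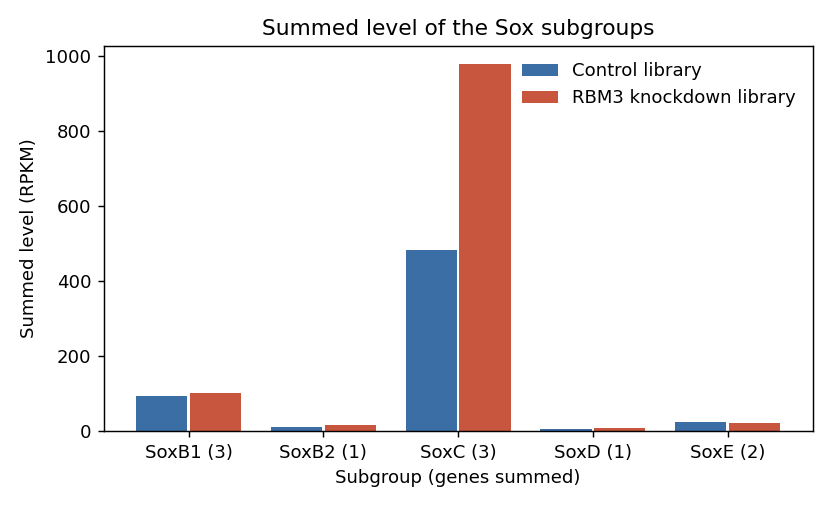
Summed RPKM of the Sox subgroups, 1 bar per library, with the number of genes summed in brackets. The SoxC bars, 483 and 978 RPKM, exceed all others, and the SoxB1 bars, 93.7 and 103 RPKM, are nearly level.

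All members past 1.5-fold, Sox1, Sox21, Sox4 and Sox11, are genes of 1 exon in GENCODE M21, as are Sox2 and Sox3. Over all measured protein-coding genes of 1 exon, 228 in number, the median log2 ratio was 0.12 and 9.65% were at least 2-fold higher and 5.70% at least 2-fold lower in the knockdown library. Over the other 11111 protein-coding genes the median was 0.03, 1.55% were 2-fold higher and 4.52% lower. The genes of 1 exon include these Sox genes themselves, and Pou3f1, Pou3f2, Pou3f3 and Insm1 named below. This comparison was chosen after the values were seen, and its part in the Sox ratios was not tested. Sox12, Sox8, Sox9 and Sox6, with more than 1 annotated exon, had log2 ratios from -0.35 to 0.39. Exons were counted over all annotated transcripts of a gene. Sox12 has 3 distinct exons over 2 transcripts, but its longest coding transcript, of 4453 bases, covers the whole gene without an intron. Its log2 ratio was 0.08, so a SoxC gene with an unspliced transcript is among those not higher.

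Of the other Sox genes, 7 were listed and 6 were measured. Sox18, an endothelial SoxF gene, was 4.24-fold lower (3.08 to 5.96), with 222 control and 46 knockdown reads. The other SoxF genes were low as well, Sox17 with 129 and 44 reads (a mean under 5 CPM) and Sox7 with 147 and 68 reads, a log2 ratio of -0.85. Beside them, 8 of 11 endothelial markers were 2-fold lower, with summed levels of 413 and 162 CPM, and their part in the SoxF values was not tested. Sox5, a SoxD gene like Sox6 that controls subplate and deep-layer neurons, had a log2 ratio of 0.39, the same to 2 decimals as Sox6. Sox13, also of SoxD, had one of -0.70. Sox10, the SoxE factor of oligodendrocytes and neural crest, had 111 and 78 reads and a log2 ratio of -0.30, and Sox14, the relative of Sox21, had 171 and 167 reads and one of 0.14.

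Sox proteins act with partners, and POU factors of class III, which bind beside Sox proteins in neural enhancers, included 3 genes with ratios between those of Sox4 and Sox11. Of 11 partner genes, all measured, 3 were 2-fold higher, none lower and 8 between, beside 2.13% of measured genes higher and 4.51% lower. The median log2 ratio of the partner genes was 0.48. Pou3f1 had 720 control and 2154 knockdown reads, 3.40-fold higher (3.13 to 3.71). Pou3f3 had 4507 and 12193 reads, 3.08-fold higher (2.97 to 3.19), and Pou3f2 (Brn2), the partner of Sox2 at the nestin enhancer, had 2267 and 5033 reads, 2.53-fold higher (2.40 to 2.66). These 3 POU genes also have 1 exon. Pou3f4, of the same class, had 222 and 329 reads and was 1.69-fold higher (1.42 to 2.01), below the ratio of Sox4.

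Genes reported as targets of Sox proteins had medians on either side of 0. Of 7 measured SoxB1 targets, 1 was higher and 2 were lower, with a median of 0.22. Nes, the intermediate filament of stem cells, was 2.20-fold lower (2.10 to 2.30), the Notch effector Hes5 was 2.06-fold lower (1.81 to 2.36), and the cytokine feedback gene Socs3 was 2.15-fold higher (1.84 to 2.51). Of 8 SoxC targets, 1 was higher and 7 lay between, with a median of 0.14. That gene was Insm1, a zinc finger factor of newborn neurons with 2207 and 5886 reads, 3.03-fold higher (2.89 to 3.19), which has 1 exon. Of 9 measured SoxE targets, 1 was lower and 8 between, 8 had a log2 ratio below 0, as had 46.9% of all measured genes, and the median was -0.66. Pdgfra, the growth factor receptor of oligodendrocyte precursors, was 2.38-fold lower (2.05 to 2.77), and it is also in the list of oligodendrocyte precursors, where 3 of 6 genes were above 0 and 3 below, with a median of -0.09. Olig1 and Olig2, factors that define that lineage, each had a log2 ratio of 0.23.

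Cell type markers differed beside these genes. Among neuronal markers 3 of 10 were 2-fold higher and none 2-fold lower, with a median of 0.71, among them Neurod2 (2.29-fold, 2.22 to 2.36) and Tbr1 (2.02-fold, 1.94 to 2.10). On the same list Stmn2, a microtubule regulator of growing neurons, was 1.65-fold lower (14230 and 7558 reads), and the neuronal tubulin Tubb3, the most abundant by CPM, stood at 2076 and 2072 CPM. Stmn2, Tubb3, Olig1, Olig2 and Pou3f4 were named after their values were seen. Intermediate progenitor markers had 2 of 7 higher, Insm1 and Sstr2 (2.59-fold, 2.40 to 2.80), and a median of 0.59. Neural progenitor markers had 3 of 14 lower, none higher and a median of -0.58, with Fabp7, which carries fatty acids in radial glia, 3.05-fold lower (2.94 to 3.17). All 10 measured meningeal markers and 5 of 6 choroid plexus markers were 2-fold lower, with medians of -4.03 and -3.35. Cartilage depends on Sox9, and 3 of 6 cartilage markers were listed, of which Col2a1 had 1933 and 973 reads. The part of these cell types in the Sox values was not tested. Leaving markers of other cell types out of the scaling, an alternative added after seeing the data, gave log2 ratios of 1.02 for Sox4 and 1.87 for Sox11.

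**Figure D4:**
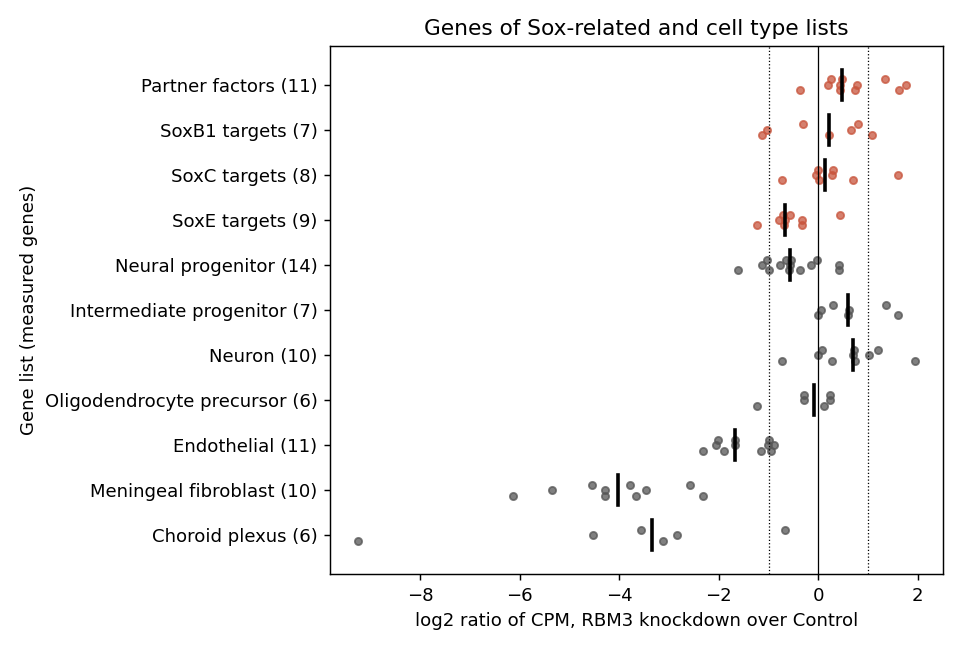
log2 ratio of CPM, knockdown over control, of each measured gene (points) in lists of Sox partners and targets (red) and of cell types (grey), with the list median as a black bar and dotted lines at 2-fold. Partner factors and neuronal markers have medians of 0.48 and 0.71, while meningeal and choroid plexus markers lie far to the left, with medians of -4.03 and -3.35.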

How the data were processed

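Each group, Control and RBM3 knockdown, had 1 mouse RNA-seq library from 100 ng of total RNA. HTSeq 0.6.0, Bowtie 1.0.1 and TopHat2 2.0.12 are named in the submitters' processing notes without roles. For genome build, annotation and strand setting: not given in the sources used here. In each row the deposited table holds raw read counts and RPKM values per library, and the authors' log2 fold change and log2 average CPM with their p-value and FDR, per the file headers. Totals are over listed genes. The other 10 columns hold gene IDs, names, annotation and the authors' up or down call, and no values per sample, and 23 names that had been turned into dates were restored by gene ID.

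TMM scaling (edgeR 4.0.16) gave factors of 1.04 (control) and 0.963 (knockdown). To each CPM 0.5 was added before log2 ratios, which understates differences of genes with few reads. Folds are without it. A gene was measured from a mean of 5 CPM, and 2-fold was a rule of size. Fold intervals are exact (Clopper-Pearson, 95%) from the split of reads, RPKM intervals exact Poisson, and intervals for ratios between genes log-normal. With no replicates no test was made. The members, lists and rules were chosen with earlier results of these data known. Named were the members, other Sox genes, and up to 4 genes per list past 2-fold, with the largest log2 ratios. Overlapping noncoding genes and the comparison of 1-exon genes were added after seeing the data. Positions are those of the same gene IDs (versions aside) in GENCODE M21 (GRCm38), used for lookup only. The gene length behind RPKM was reads over RPKM, with the depth set on 158 genes of 1 transcript. The ratio calculation was tested on simulated data. Not all lists fixed are reported gene by gene, and 1 neuronal marker that the rule names is not reported here. Interneuron, mural, erythroid, microglial and neural crest markers had medians of 0.03, -0.63, -2.06, 0.17 and -0.47. The cartilage list had 2 measured genes and a median of -0.57.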

Additional observations from a re-analysis of the deposited data

How the results depend on the processing

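No paired analysis was possible because each group had 1 library, and for the same reason none could be left out. The count of members 2-fold higher, 2 here, was 1 with library totals, upper-quartile scaling or the transcript length correction. It was also 1 when reads of overlapping genes were added (an alternative chosen after seeing the data that may count shared reads more than once). It was 1 at a 3-fold line too, and Sox11 was the 1 member in all of these. It was 4 at 1.5-fold. It was 2 under the other scalings, pseudocounts, CPM minimums and the authors' values, and the count of members lower was 0 under each. The median of the members, 0.26, was 0.15 with library totals and ranged from 0.15 to 0.28, but scaling by library totals also moved the median of all measured genes by -0.11. Sox11 ranged from 1.77 to 2.0, Sox4 from 0.91 to 1.04, Sox1 from 0.58 to 0.71 and Sox21 from 0.65 to 0.77. Sox2 ranged from 0.02 to 0.21, and Sox6, 0.39 here, from 0.20 (transcript length correction) to 0.41. Sox8 was below 0 throughout, from -0.46 to -0.34. Sox12 (-0.03 to 0.09), Sox3 (-0.11 to 0.12) and Sox9 (-0.12 to 0.01) changed sign between settings. The median of other Sox genes, -0.50, was 0.39 with a minimum of 20 CPM, which leaves Sox5 alone. All measured genes past the fold line numbered from 59 (3-fold) to 1108 (1.5-fold) higher and from 153 (minimum 20 CPM) to 1504 (1.5-fold) lower. The fewest reads behind a member were 410, and the spread between embryos cannot be had from 1 library a group.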

Other observations

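The gene named Sox2ot in the table (ENSMUSG00000090828.2), a long noncoding RNA, had 877 control and 588 knockdown reads, log2 -0.39, beside 0.13 for Sox2. In GENCODE M21 no stretch of 50 bases of the Sox2 transcript was found in a transcript of another gene. That transcript has 2057 bases, while the Sox2 model behind the counts was 2457 bases long, so part of the counted model was not covered by this search.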
